A study of Caenorhabditis elegans with 2 samples.

Results

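The proteasome subunit genes of Caenorhabditis elegans are 33 of the 19973 protein-coding genes that were examined. They were taken by gene name as the 7 alpha (pas) and 7 beta (pbs) subunits of the core particle, the 6 ATPases of the regulatory particle (rpt) and its 13 non-ATPase subunits (rpn), and no measured value is part of that rule. The proteasome degrades proteins that carry ubiquitin. Its core is a hollow stack of alpha and beta rings with the protease sites inside, and a regulatory particle caps it, binds ubiquitinated proteins, removes the ubiquitin, unfolds the protein and feeds it in. The subunits are needed together in fixed proportions, and in worms, flies, yeast and mammals their transcription is known to be raised in concert when the proteasome is impaired.

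Binding of NHR-11, a nuclear hormone receptor, was mapped by chromatin immunoprecipitation and sequencing (ChIP-seq), in which an antibody pulls down a protein with the DNA it sits on. Both biological replicates came from the same strain, OP305, which carries the unc-119(ed3) mutation on chromosome III and the transgene insertion wgIs305 with NHR-11 fused to eGFP, a green fluorescent protein tag. Whole animals of both sexes pooled were collected at L4, the last larval stage, and their age was given as unknown. There was 1 group, so no condition, untagged strain or other stage was compared, and the possible control that the labels point to was not used here. Whole animals mix all tissues, so a peak could come from any of them, and the bound protein was a tagged product of a transgene. Neither nhr-11 on chromosome IV nor unc-119 on III had a promoter summit in any list, and the nearest proteasome genes lay 247 kb (rpn-7) and 1468 kb (rpt-6) from them.

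Peaks came from 4 deposited lists in genome build ce11. The thresholded list of 2719 peaks was made by the authors with a rule on reproducibility between replicates. The pooled list holds 13558 entries, and the lists of replicate 1 and replicate 2 hold 19074 and 22137, and all 3 of these lists include background regions beside peaks. An entry of those lists that is not in the thresholded list may therefore be background, although it is called a peak below. A gene was counted when the summit of a peak, its highest point, lay no more than 1000 bp upstream or 200 bp downstream of the annotated gene start. Each peak's signal is the strength that the authors' processing gave it, and is used here only to rank peaks within a list. The 2719 strongest pooled entries gave the same counts as the thresholded list, with 11 proteasome genes and 1654 of all genes. A place in the thresholded list thus went with pooled signal, and such a peak need not stand high in each replicate. The lists hold no read counts, so depth is unknown, and the 95% Clopper-Pearson intervals cover the counting of genes only.

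The sequences under the peaks are shown first for the 4 genes that bear most on the descriptions that follow. rpn-3 had the highest peak of the family, rpt-2 came next, rpn-2 lay in the middle of the range, and rpn-9 had a peak that ranked far higher in replicate 2. Each line gives 101 bases of the ce11 genome centred on the thresholded summit, from RefSeq, 5′ to 3′ on the strand of the gene. Capitals mark the 6-mer TTGTCA or its reverse complement TGACAA. The windows lie at chrIII:8447112-8447212 on the plus strand for rpn-3, chrV:6017767-6017867 on the minus strand for rpt-2, chrIII:6198808-6198908 on the plus strand for rpn-2 and chrII:11239055-11239155 on the minus strand for rpn-9.
rpn-3: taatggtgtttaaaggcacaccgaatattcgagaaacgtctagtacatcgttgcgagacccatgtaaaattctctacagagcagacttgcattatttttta
rpt-2: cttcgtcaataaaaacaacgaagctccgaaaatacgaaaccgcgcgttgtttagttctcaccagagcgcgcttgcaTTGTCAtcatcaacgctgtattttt
rpn-2: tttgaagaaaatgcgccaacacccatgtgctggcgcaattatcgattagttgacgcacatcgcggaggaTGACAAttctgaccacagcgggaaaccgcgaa
rpn-9: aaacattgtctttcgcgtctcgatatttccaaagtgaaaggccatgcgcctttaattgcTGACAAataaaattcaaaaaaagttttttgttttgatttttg

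Most of the family had a promoter peak in the pooled list, while the thresholded list held fewer of its genes. In the thresholded list 11 of 33 genes had a promoter summit (33.3%, interval 17.96 to 51.8), against 8.28% of all protein-coding genes. The pooled list, which adds weaker peaks and background regions, had one at 25 of 33 (75.8%, interval 57.7 to 88.9), against 25.3%. Each replicate's own list showed a similar share, with 24 genes in replicate 1 (72.7%, against 30.4% of all genes) and 26 in replicate 2 (78.8%, against 33.8%). A summit in both replicate lists was found for 21 genes (63.6%, interval 45.1 to 79.6), against 21.3%. A further 4 genes (pas-2, rpn-6.2, rpn-8 and rpn-10) had one in a single replicate list only, and 4 (pas-6, pbs-5, rpt-4 and rpt-5) had none in any list.

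How the family stood at the top of the lists depended on the list. Among the 1000 strongest pooled peaks only rpn-3 had a promoter summit, which is 3.03% of the family beside 3.65% of all genes. With the 1500 strongest peaks the share rose to 21.2% (7 genes) beside 5.08%, with 2000 to 30.3% (10 genes) beside 6.35%, and with 6000 to 60.6% (20 genes) beside 15.4%. The highest signal of the 11 thresholded genes was 310.3, their median was 82.9 and the lowest 60.3, and the median over all 1654 genes with a thresholded promoter summit was 90.2. Replicate 1 on its own had 1 gene among its 1000 strongest peaks (3.03% beside 3.61% of all genes) and 7 among its 2000 strongest (21.2% beside 6.19%). Replicate 2 had 4 among its 1000 strongest (12.1% beside 3.66%) and 11 among its 2000 strongest (33.3% beside 6.44%). Over all genes with a promoter summit in the longer lists, the family's median signal was above that of all genes, with 49.4 beside 38.5 in the pooled list, 22.8 beside 17.3 in replicate 1 and 28.7 beside 16.1 in replicate 2.

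**Figure D1:**
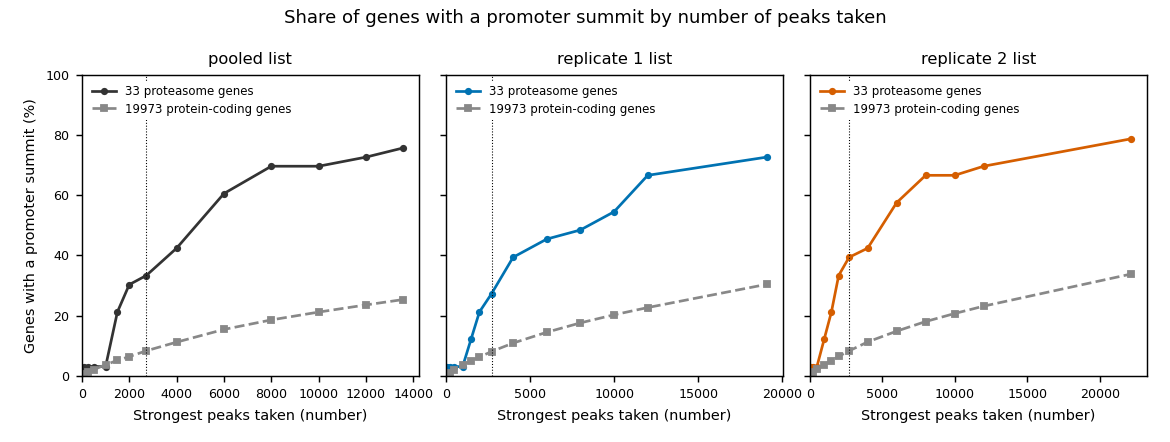
The share of genes with a promoter summit (vertical axis, %) is plotted against the number of strongest peaks taken from the pooled list, replicate 1 and replicate 2, for the 33 proteasome genes (solid line) and all 19973 protein-coding genes (dashed line). In the pooled list both lines are close at 1000 peaks (3.03% and 3.65%) and part by 2719 peaks, the dotted vertical line (33.3% and 8.28%).

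Counts by role follow. Over all protein-coding genes the shares were 8.28% in the thresholded list, 25.3% in the pooled list and 21.3% in both replicates. The roles hold only 4 to 9 genes each, so their counts are descriptions. In the core particle the alpha ring, whose subunits form the gate through which proteins enter, had 1 of 7 genes in the thresholded list and 5 of 7 in the pooled list. That gene was pas-4 (WBGene00003925, chrI:8727218-8728487, minus strand), with a summit at 8728655 on chromosome I, 168 bp upstream of its start. The peak of pas-4 had a signal of 79.5 in the pooled list (rank 1486), 41.9 in replicate 1 (rank 1353) and 38.1 in replicate 2 (rank 1745). Its standing was close to equal in both replicates.

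The beta ring, which holds the protease sites, had 3 of 7 genes in the thresholded list and 6 of 7 in the pooled list. By homology with yeast and mammals pbs-1, pbs-2 and pbs-5 encode the catalytic subunits, and pbs-3 encodes one without a protease site of its own. The gene pbs-3 (WBGene00003949, chrII:4954480-4955427, minus strand) had its summit at 4955565 on II, 138 bp upstream, with signals of 84.1 pooled (rank 1354), 46.8 in replicate 1 (rank 1114) and 42.8 in replicate 2 (rank 1407). That summit lay in the 3′ untranslated region of ulp-2, a gene for a protease of the ubiquitin-like protein SUMO, which ends 23 bp upstream of pbs-3 on the same strand. At pbs-1 (WBGene00003947, chrIV:1708814-1709745, minus strand) the summit stood at 1709937 on IV, 192 bp upstream, with signals of 75.3 pooled (rank 1623), 23.1 in replicate 1 (rank 3734) and 56.4 in replicate 2 (rank 833). The peak at pbs-1 was thus much higher in the order of replicate 2 than in that of replicate 1. For pbs-2 (WBGene00003948, chrI:12967216-12968280, minus strand) it stood at 12968594 on I, 314 bp upstream, with signals of 67.2 pooled (rank 1972), 33.6 in replicate 1 (rank 2016) and 35.1 in replicate 2 (rank 1984). Its ranks hardly differed between the lists. The remaining catalytic gene, pbs-5, had no promoter summit in any list.

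In the base of the regulatory particle, the ring of 6 ATPases unfolds the bound protein and opens the gate of the core. Of these ATPase genes 2 had a thresholded promoter peak, 4 a pooled one and 4 one in both replicates. At rpt-2 (WBGene00004502, chrV:6016059-6017669, minus strand) the summit at 6017817 on V, 148 bp upstream, had signals of 95.8 pooled (rank 1063), 37.5 in replicate 1 (rank 1657) and 59.4 in replicate 2 (rank 763). The family's second highest peak, it ranked better in replicate 2. The summit of rpt-1 (WBGene00004501, chrV:11980534-11982397, minus strand) at 11982505 on V, 108 bp upstream, had signals of 60.3 pooled (rank 2346), 37.1 in replicate 1 (rank 1703) and 17.9 in replicate 2 (rank 5989). This was the weakest of the 11 thresholded peaks, and it ranked better in replicate 1.

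Next to the ATPases, the large scaffolds RPN-1 and RPN-2 and the ubiquitin receptors RPN-10 and RPN-13 catch the ubiquitinated protein. Of these 4 genes, rpn-2 alone passed the authors' threshold, and 3 had a pooled summit. For rpn-2 (WBGene00004459, chrIII:6199184-6202594, plus strand) the summit stood at 6198858 on III, 326 bp upstream, the farthest of the 11. Its signals were 82.9 pooled (rank 1386), 32.97 in replicate 1 (rank 2079) and 47.0 in replicate 2 (rank 1178).

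The lid, which removes the ubiquitin chain, had 4 of 9 genes in the thresholded list, 7 of 9 in the pooled list and 7 of 9 in both replicates. Its scaffold subunit gene rpn-3 (WBGene00004460, chrIII:8447353-8449346, plus strand) stood apart from all others in the family. Its summit at 8447162 on III, 191 bp upstream, had signals of 310.3 pooled (rank 51), 157 in replicate 1 (rank 45) and 156 in replicate 2 (rank 56). No other family member was above rank 1000 in the pooled list, and its pooled interval was narrow, 148 bp wide, where the median of that list is 376 bp. The peak lay 253 bp upstream of hsp-110, a chaperone gene on the opposite strand, so it cannot be given to rpn-3 alone.

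Another lid scaffold gene, rpn-5 (WBGene00004461, chrII:4696418-4698427, minus strand), had a summit at 4698448 on II, 21 bp upstream, with signals of 87.6 pooled (rank 1242), 48.07 in replicate 1 (rank 1054) and 39.2 in replicate 2 (rank 1656). At rpn-11 (WBGene00004467, chrII:4043055-4044546, minus strand), the gene of the deubiquitinating enzyme of the lid, the summit at 4044559 on II stood 13 bp upstream, the nearest of the 11. Signals at rpn-11 were 84.8 pooled (rank 1331), 37.0 in replicate 1 (rank 1710) and 48.4 in replicate 2 (rank 1101). These peaks at rpn-5 and rpn-11 lay almost on the annotated start. The lid scaffold gene rpn-9 (WBGene00004465, chrII:11237447-11238919, minus strand) had a summit at 11239105 on II, 186 bp upstream, with signals of 75.6 pooled (rank 1613), 22.5 in replicate 1 (rank 3913) and 51.2 in replicate 2 (rank 995). Like that of pbs-1, the rpn-9 peak was among the 2719 strongest of replicate 2 but not of replicate 1.

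**Figure D2:**
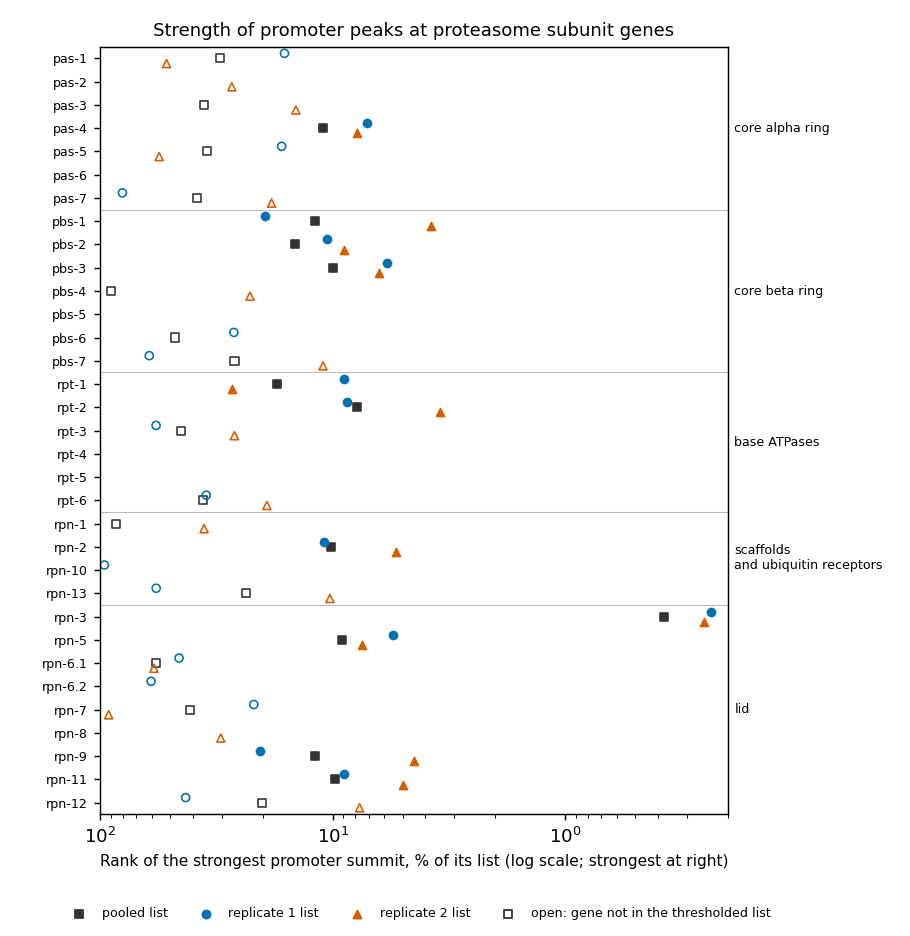
The rank of each gene's strongest promoter summit is plotted as a percentage of the length of its list (log scale, strongest at right) for the pooled list (squares), replicate 1 (circles) and replicate 2 (triangles), with genes grouped by role and filled symbols for genes in the thresholded list. The lists differ in length, so percentages compare standing within each list, where rpn-3 is far to the right of the other genes in all 3, and genes without a symbol had no promoter summit.

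The 14 genes with a pooled but no thresholded promoter summit had signals between 22.8 and 54.7. The lid gene rpn-12 came nearest to the threshold, with a signal of 54.7 (rank 2735) just below the lowest thresholded signal of 54.9, at 162 bp upstream. In replicate 2 the rpn-12 peak had rank 1698 (signal 38.7) and in replicate 1 rank 8178 (signal 15.5). It was the replicate 1 list in which rpn-12 stood low.

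The ubiquitin receptor gene rpn-13 had a pooled signal of 49.4 (rank 3206, 281 bp upstream) and ranks of 10947 in replicate 1 (signal 13.6) and 2277 in replicate 2 (signal 32.6). The beta ring gene pbs-7 had a pooled signal of 45.9 (rank 3586, 129 bp upstream) and ranks of 11720 in replicate 1 (signal 13.2) and 2437 in replicate 2 (signal 31.1). Both stood among the 2719 strongest peaks of replicate 2, as rpn-12 did, and low in replicate 1.

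The other 3 of the 6 highest pooled signals belonged to alpha ring genes. At pas-1 the signal was 41.7 (rank 4146) with 25.8 in replicate 1 (rank 3075) and 12.8 in replicate 2 (rank 11471), and the summit lay 817 bp upstream of pas-1 and 131 bp upstream of rpoa-12, a gene for an RNA polymerase I subunit on the same strand. At pas-5 it was 38.5 (rank 4708) with 25.4 in replicate 1 (rank 3162) and 12.3 in replicate 2 (rank 12340), 915 bp upstream. At pas-3 it was 37.9 (rank 4827), 178 bp upstream, with 26.2 in replicate 2 (rank 3189) and no promoter summit in replicate 1. The peaks of pas-1 and pas-5 stood higher in replicate 1, and the replicates thus did not favour 1 side throughout.

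The remaining 8 pooled peaks were at rpt-6 (signal 37.5, 719 bp upstream), pas-7 (36.1, 279 bp), rpn-7 (34.4, 360 bp), rpt-3 (32.6, 691 bp), pbs-6 (31.4, 65 bp), rpn-6.1 (28.4, 248 bp), rpn-1 (23.2, 611 bp) and pbs-4 (22.8, on the start itself). Deposited −log10 q values of these 8 ran from 0.810 (rpt-6) down to 0.0572 (rpn-1) and 0.0451 (pbs-4), in a list that includes background regions. Among the pooled-only genes with higher signals, pas-1, pas-5 and pas-3 had values of 1.09, 0.881 and 0.836. Those of rpn-12, rpn-13 and pbs-7 were 2.08, 1.74 and 1.44. Of the genes with a summit in 1 replicate list only, pas-2 had rank 6012 (signal 17.8, 170 bp upstream) and rpn-8, the gene of the non-catalytic partner of RPN-11, rank 6702 (signal 16.8, 488 bp upstream) in replicate 2. In replicate 1, rpn-6.2, a paralogue of the lid scaffold gene rpn-6.1, had rank 11512 (signal 13.3, 41 bp downstream of the start) and rpn-10 rank 18285 (signal 10.9, 109 bp downstream). These were weak entries in lists that include background regions. For the 4 genes with none, the nearest thresholded summit lay 3610 bp downstream of the start of pas-6, and upstream of the start by 20223 bp for rpt-5, 20271 bp for rpt-4 and 36385 bp for pbs-5. Thresholded summits just outside the window lay 1137 bp upstream of pas-5, 1238 bp upstream of rpt-6 and 1081 bp downstream of the start of pbs-6.

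The thresholded peaks of the family lay at similar positions. All 11 thresholded summits lay upstream of the annotated start and within 350 bp of it, against 60.4% of all 1654 genes with a thresholded promoter summit. Their median distance was 168 bp, with quartiles of 123 and 191.5 bp, and over all those genes it was 254 bp, with quartiles of 138 and 456 bp. In the pooled list the median was 191 bp for the 25 family members and 252.5 bp for all genes, and 19 of the 25 lay within 350 bp upstream (76%, against 52.6%). The 350 bp limit was not among the planned measures, and it lies just above the farthest of the 11 thresholded summits, at 326 bp. Shares within it are therefore descriptions. Many transcripts of this animal are trans-spliced, so an annotated start can lie downstream of the place where transcription begins.

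**Figure D3:**
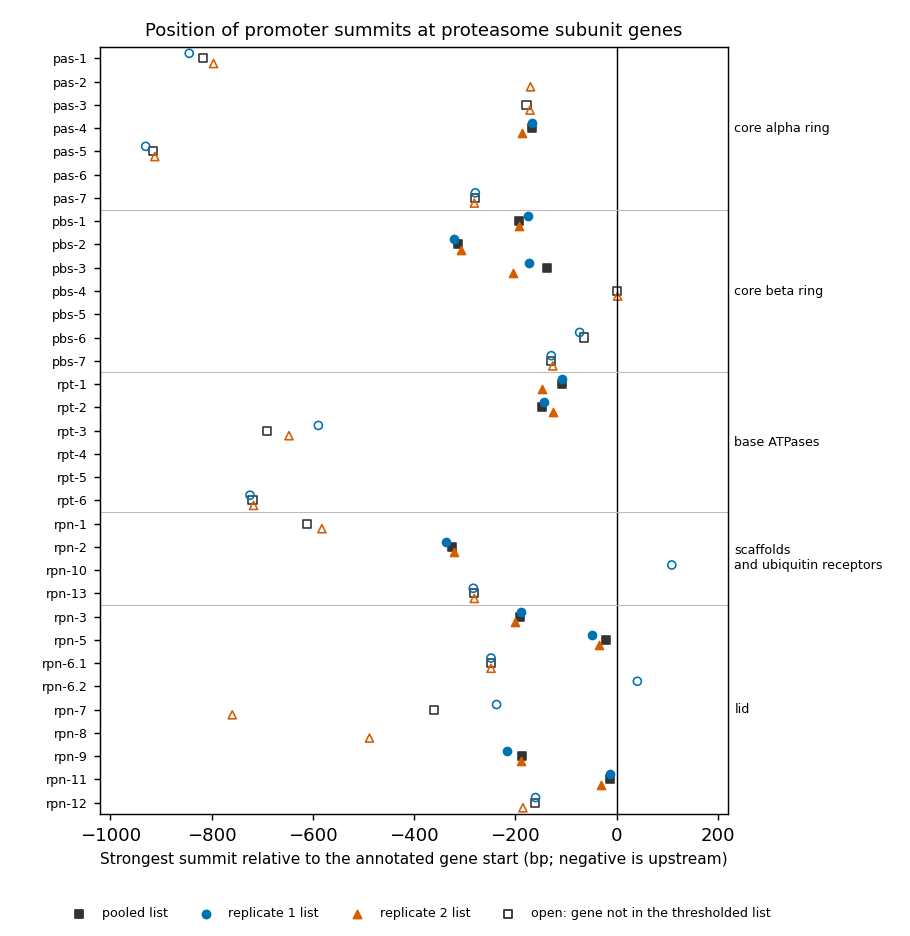
The position of each gene's strongest promoter summit relative to its annotated start (bp, negative upstream) is plotted for the pooled list (squares), replicate 1 (circles) and replicate 2 (triangles), with genes grouped by role and filled symbols for the 11 genes in the thresholded list. Pooled summits of those 11 genes fall between 13 and 326 bp upstream, and the weaker summits of pas-1, pas-5, rpt-3, rpt-6 and rpn-1 lie between 611 and 915 bp upstream.

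The replicates placed most of the family's summits close together but often ranked them differently. For the 11 thresholded genes the replicate summits were at most 40 bp apart, with a median of 18 bp. Of the 21 genes found in both lists, 19 had summits within 50 bp of each other. The exceptions were rpt-3 (58 bp) and rpn-7 (522 bp). The strongest rpn-7 summit lay 237 bp upstream in replicate 1 and 759 bp upstream, in a coding exon, in replicate 2. Standing within the list, as a percentage of its length, differed more than 3-fold for 10 of the 21. Of these, 6 stood higher in replicate 2 (pas-7, pbs-1, pbs-7, rpn-9, rpn-12 and rpn-13) and 4 in replicate 1 (pas-1, pas-5, rpt-1 and rpn-7). For rpn-7 the ranks are those of different peaks. The same counts of distance and standing were not made over all genes, so they describe these 21 genes only. With each replicate limited to its 2719 strongest peaks, 9 genes were found in replicate 1 (27.3%, against 8.04% of all genes), 13 in replicate 2 (39.4%, against 8.26%) and 8 in both (24.2%, against 6.33%). The gene rpt-1 was found in replicate 1 only, and pbs-1, pbs-7, rpn-9, rpn-12 and rpn-13 in replicate 2 only. With 2 replicates and no read counts, the spread of a single peak's signal was not estimated.

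**Figure D4:**
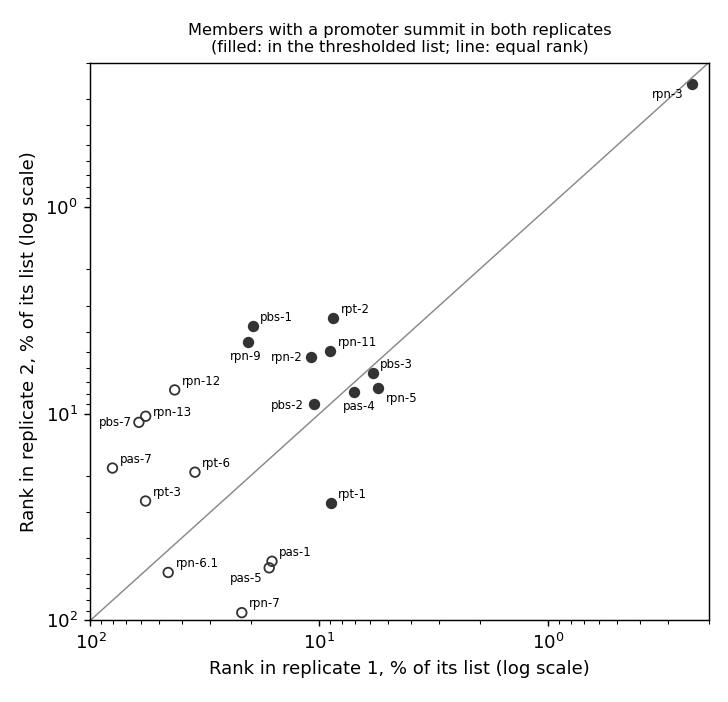
For the 21 genes with a promoter summit in both replicate lists, rank in replicate 1 (horizontal) is plotted against rank in replicate 2 (vertical), each as a percentage of its list on a log scale with the strongest at the upper right. Filled symbols mark genes in the thresholded list and the line marks equal rank. The gene rpn-3 lies on the line at the top, pbs-1 and rpn-9 lie above it and rpt-1 below it.

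Most of these genes share their upstream region with another gene. Of the 33, 21 (63.6%) have a protein-coding gene on the opposite strand that starts within 1000 bp upstream, a head-to-head pair, against 17.7% of all genes. Genes in such pairs more often had a promoter summit in general, with 18.0% of the 3539 head-to-head genes in the thresholded list and 41.7% in the pooled list. Among the 21 family members of this kind, 8 had a thresholded summit (38.1%, interval 18.1 to 61.6) and 16 a pooled one (76.2%, interval 52.8 to 91.8). Among the 12 other members, 3 had a thresholded summit (25%, interval 5.49 to 57.2), against 6.19% of the 16434 other genes, and 9 a pooled one (75%, interval 42.8 to 94.5), against 21.8%. In the thresholded list the lower bounds of both intervals lie close to the background of their class (18.1 beside 18.0%, and 5.49 beside 6.19%), and in the pooled list both lie above it. A gene on the same strand ended within 1000 bp upstream of 9 of the 33 (27.3%), against 28.9% of all genes.

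Of the 11 thresholded summits, 8 also lay in the promoter window of another protein-coding gene, against 45.6% of the 1654 genes with such a summit, and pbs-3, rpt-1 and rpn-11 had theirs alone. Besides hsp-110 at rpn-3, the partners on the opposite strand were rpb-3, a gene for an RNA polymerase II subunit (summit 109 bp upstream of it, against 168 bp for pas-4), K08D12.3 (328 bp, at pbs-1) and eif-6, a gene for a ribosome assembly factor (352 bp, at pbs-2). The others were aps-1, a clathrin adaptor gene (153 bp, at rpt-2), C23G10.7 (444 bp, at rpn-2), scc-1, a cohesin gene (273 bp, at rpn-5), and T06D8.9 (492 bp, at rpn-9). The pas-4 summit was the only one of the 11 nearer to the partner. A noncoding gene within 500 bp was annotated as well at rpn-3 (C30C11.14), pas-4 (C36B1.16) and rpt-2 (F29G9.10). The summits of pas-4 and rpt-2 lay in an exon annotated as neither coding nor untranslated region. Among the 14 genes with a pooled peak only, 10 summits were shared and 7 were nearer to the partner. The same shares over all genes with a pooled promoter summit were not computed, so these counts are descriptions. The rpn-12 summit lay 233 bp upstream of rad-23, which encodes a shuttle factor that brings ubiquitinated proteins to the proteasome.

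Sequence around the summits was searched on both strands within 50 bp of each of the 11 thresholded summits and, for comparison, of all 2719. The nuclear receptor site AGGTCA was in 0 of the 11 windows and in 2.65% of all, and its worm variant AAGTCA in 1 (pbs-2) and 3.38%. A SKN-1 type site, TGTCAT or TATCAT, named for the factor that raises proteasome gene transcription in worms, was in 3 windows (rpt-2, rpn-2 and rpn-11) and in 9.08% of all. Heat shock element pairs, GAANNTTC or TTCNNGAA, were in 1 (rpn-3) and 6.91%, and the splice acceptor TTTCAG in 3 (pas-4, rpt-1 and rpn-5) and 6.44%. No member window held the E-box CACGTG (5.99% of all), the repeat GAGAGA (30.4%), the GATA site TGATAA (7.17%), the FOXO site TGTTTAC (2.46%), the TATA box TATAAA (4.16%) or GGTGGCAAA, the proteasome element of yeast (0.147%). Within 500 bp upstream of the start, the SKN-1 type site was found at 16 of the 33 genes (48.5%), against 45.3% of all protein-coding genes. A match is only a run of letters, and its absence says only that these letters are not in the window.

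Of all 6-mers, TTGTCA had the highest ratio of its share in the 11 windows to its share in all windows, among those in at least 5 of the 11. It was chosen from these same windows, so its count is a description. TTGTCA was in 6 windows (pbs-2, rpt-2, rpn-2, rpn-5, rpn-9 and rpn-11) and in 5.99% of all 2719. In all 6 it lay on the side of the summit towards the gene, between 12 and 43 bp from the summit, and it read towards the gene in 4 and away from it in rpn-2 and rpn-9. The letters overlap the SKN-1 type site TGTCAT, and the 3 matches to that site in rpt-2, rpn-2 and rpn-11 are the same bases.

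The sites of 5 of these 6 genes, all but pbs-2, can be compared over 24 bases, each written so that the 6-mer, in capitals, reads TTGTCA. They are from the ce11 genome (RefSeq) at chrV:6017777-6017800 (minus strand), chrIII:6198868-6198891 (minus), chrII:4044507-4044530 (minus), chrII:4698418-4698441 (minus), chrII:11239082-11239105 (plus) and, for pas-6, which had no summit in any list, chrV:5584524-5584547 (minus).
rpt-2: gcgcttgcaTTGTCAtcatcaacg
rpn-2: tggtcagaaTTGTCAtcctccgcg
rpn-11: accccgcaaTTGTCAtcctcacaa
rpn-5: ctgtgcggaTTGTCActcaagaaa
rpn-9: gaattttatTTGTCAgcaattaaa
pas-6: tcgcttattTTGTCAtcctttcaa

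At rpn-2 and rpn-11 the shared run is longer, 13 bases around the 6-mer, and the genome holds 12 copies of it. The 2 copies at rpn-2 and rpn-11 themselves were the only ones within 100 bp of a thresholded summit. Genes without a thresholded summit held the 6-mer too. Within 500 bp upstream of the start it was found on either strand at 21 of the 33 genes (63.6%), against 31.8% of all protein-coding genes, at 8 of the 11 with a thresholded summit and 13 of the 22 without. The pas-6 site shows this, with the same 6-mer and no summit. The windows at pas-4 and pbs-2 share a 20-base run that has 29 copies in the genome. Of these, 4 lay within 100 bp of a thresholded summit, those at pas-4 and pbs-2 included. Their peaks lie on sequence that is repeated elsewhere, and what that repeat does to the signal was not tested. GC content of the 11 windows had a median of 43.6%, against 46.5% over all 2719.

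Genes that work with the proteasome differed by list in how many carried a peak, in the lists fixed for this description. Ubiquitin and the enzymes that activate and conjugate it had 7 of 24 genes in the thresholded list (29.2%) and 15 in the pooled list (62.5%). Among them ubq-2, a ubiquitin gene fused to a ribosomal protein, had a pooled signal of 155 (rank 395), above every proteasome subunit gene except rpn-3. Conjugating enzyme genes with a thresholded peak included ubc-3 (signal 128), ubc-6 (113), ubc-25 (91.2) and ubc-7 (70.4). Of CDC-48, which extracts and unfolds ubiquitinated proteins for the proteasome, and its cofactors, 3 of 7 genes had a thresholded peak, cdc-48.1 (signal 1108), ufd-3 (140.1) and ufd-2 (109).

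Other groups had no thresholded promoter peak. Accessory proteins and regulators, which include the deubiquitinating enzyme genes ubh-4 and usp-14, the transcription factor gene skn-1 and its processing enzyme genes png-1 and ddi-1, had 0 of 9 genes in the thresholded list and 2 in the pooled list, ubh-4 (signal 41.7) and usp-14 (26.5). The COP9 signalosome, a complex built like the lid, had 0 of 7 and 2 of 7. Cullins, the scaffolds of ubiquitin ligases, had 0 of 6 and 4 of 6. With so few genes a group, these counts against the 8.28% and 25.3% of all genes are descriptions.

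**Figure D5:**
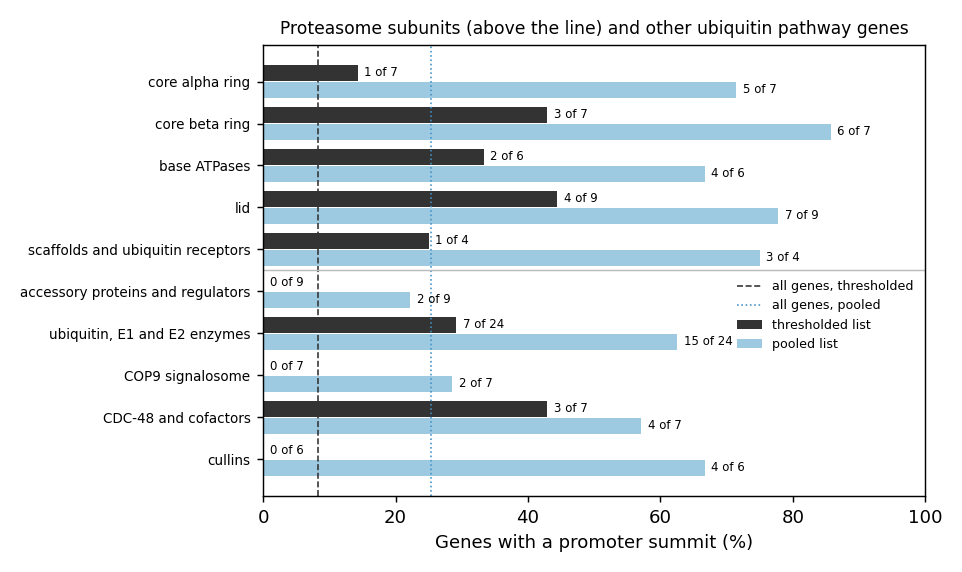
Bars give the percentage of genes with a promoter summit in the thresholded list (dark) and the pooled list (light) for the 5 roles of proteasome subunits, above the line, and for 5 groups of other ubiquitin pathway genes, below it, with counts beside each bar and vertical lines at 8.28% and 25.3% for all protein-coding genes. The lid (4 of 9) and the beta ring (3 of 7) have the highest thresholded bars among subunits, and the alpha ring (1 of 7) the lowest.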

How the data were processed

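ChIP-seq peaks of 2 biological replicates of 1 group were used, from lists that the authors deposited in build ce11. Per the texts deposited with the files, replicate lists were called on each replicate, the pooled list on both, and the thresholded list was made from them by a reproducibility rule (IDR, irreproducible discovery rate). Which aligner and peak caller were used, and at which threshold, is not given in the sources used here. The deposited signal is the authors' strength per peak on an unstated scale. The deposited −log10 q values reached a maximum of 3.52 shared by 1675 pooled peaks, so ranks follow the signal. Summits were placed with the deposited summit offset.

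Summits were assigned to gene starts of Ensembl release 115 (WBcel235, the sequence of ce11) and counted with Python 3.11.15 and numpy 2.4.6, with intervals from scipy 1.17.1. The functions were tested on simulated data. Genes named were every family member, pathway genes with a thresholded promoter summit (some are not reported here), genes sharing such a family summit, and nhr-11 and unc-119 as checks, with full values for thresholded members and the 6 highest pooled-only ones. Genes sharing weaker summits, noncoding genes near summits, ubh-4 and usp-14, regulators and the 6-mer are outside that rule and were picked once values were known. Members and lists were chosen with earlier results of these data known, so no test was run. Alternatives covered the window, starts, strength and each replicate.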

Additional observations from a re-analysis of the deposited data

How the results depend on the processing

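The thresholded count of 11 genes, its median distance of 168 bp, the pooled count of 25, the 8 shared summits and the motif matches were recomputed under the alternatives. The thresholded count was 5 with the stronger part of the list (4.59% of all genes), which keeps fewer peaks by construction and loses pas-4, pbs-1, pbs-2, rpn-2, rpn-9 and rpt-1. It ranged from 9 to 13 when 1 replicate was left out, with the 2719 strongest peaks of the other replicate in place of the thresholded list. These are the counts already given for each replicate. Without replicate 1 it was 13, gaining pbs-7, rpn-12 and rpn-13 and losing rpt-1, and without replicate 2 it was 9, losing pbs-1 and rpn-9. The share of all genes, 8.28% as reported, moved with these settings. A window of 500 bp upstream gave 11 (6.43% of all genes), 2000 bp upstream 13 (11.2%), any overlap of the peak 12 (9.002%), peak middles 11 (8.29%), any transcript start 11 (9.11%) and nearest starts 10 (6.28%), and leaving out the 20-base repeat at pas-4 and pbs-2, added after the data were seen, gave 9. The pooled count was 20 with 500 bp upstream (18.7% of all genes), 26 with 2000 bp (33.8%) and 21 with a summit in both replicate lists (21.3%). At the same 11 genes the median distance was 173 bp in the full list of replicate 1 and 188 bp in that of replicate 2. The cause was not tested. Matches to the listed motifs rose from 8 to 14 in windows of 100 bp on each side, which are longer, and windows with TTGTCA from 6 to 8. No paired analysis was possible because there was 1 group and no comparison between groups. Depth is unknown, so no detection limit was set.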
